A study of Mus musculus with 18 samples.

Results

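The contacts of the mouse Il4 gene were compared between T helper 2 (Th2) cells and naive CD4 T cells. The members are the arrays whose titles name the Il4 4C experiment in these cell types, 2 Th2 arrays and 2 naive arrays, 4 of the 18 arrays of the series. 4C, circular chromosome conformation capture, reads which stretches of the genome lie close in the nucleus to a gene of choice, called the bait. Crosslinked chromatin is cut with HindIII and ligated, cut with Csp6I and ligated again, and the DNA joined to the bait is amplified from it and hybridised to a genome-wide tiling array. The series used the Ifng gene and the Il4 gene as baits, and its title is about how STAT binding relates to the folding of the genome in differentiating T cells.

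Th2 cells are labelled as primary CD4+ T cells under Th2 conditions, and naive cells as primary CD4+ T cells with no treatment. The other Il4 arrays, used here for the spread between replicates and for a side-by-side comparison, are 2 of Th1 cells under Th1 conditions and 2 of Stat6 knockout cells under Th2 conditions. All 8 carry Cy5-labelled 4C DNA against Cy3-labelled, equally digested genomic DNA of the same cells. The labels give no strain, age, sex, purity or days in culture, and no genotype for the groups other than the Stat6 knockout. Their protocol text is written for adherent cells and other baits. The series' design text calls its arrays individual biological replicates except for 1 pool of 2, without naming the pool, and no label ties a replicate to a mouse or a culture, so the p-values reflect no more than the spread of these arrays, which may be technical. An array of contacts reads no expression, so neither the cell type nor the loss of Stat6 could be checked from markers.

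Il4 encodes interleukin 4, the cytokine that defines Th2 cells and also drives their differentiation. Naive CD4 T cells transcribe it little, and in Th2 cells interleukin 4 signals through the transcription factor STAT6, which induces GATA3, the lineage's master regulator. Il4 lies in a cluster with Il13 and Il5, whose interleukins act in the same type 2 response, and Rad50, a DNA repair gene that carries the cluster's locus control region. In the RefSeq order of genes of GRCm38.p6 the locus runs Sowaha, Septin8, Kif3a, Il4, Il13, Rad50, Il5, Irf1, where Kif3a encodes a kinesin subunit and Irf1 an interferon-responsive transcription factor.

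A promoter of the bait gene is shown because the study's subject is STAT binding. The sequence is that of RefSeq, build GRCm38.p6, the 250 bases before a transcription start, at chr11:53618666-53618915 on the minus strand. The capitals mark the 1 match to TTCNNNNGAA, a spacing of the palindrome that STAT6 is known to bind, and it begins 167 bases before the start. RefSeq lists 2 starts for Il4, of which the outer is shown, and the promoter of the inner one has no match.

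Il4: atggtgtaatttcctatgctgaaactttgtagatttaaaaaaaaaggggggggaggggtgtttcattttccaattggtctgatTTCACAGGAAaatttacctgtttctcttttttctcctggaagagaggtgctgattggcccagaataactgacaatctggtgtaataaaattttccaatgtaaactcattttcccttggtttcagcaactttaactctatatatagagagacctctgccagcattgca

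The palindrome reads the same on both strands and was found in 6.95% of the 32851 RefSeq promoters of 300 bases. A match is a description of the letters and not a measured site. The array positions below are in another build, taken as mm8 from the probe positions, and are not to be set against the promoter's.

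Each array held 384942 probes, 18333 of them on chromosome 11, at a median spacing of 5037 bp. A value is the deposited log ratio of 4C over genomic DNA, taken as log2, minus the median of the array's probes off chromosome 11, so that 0 is the level of the other chromosomes. The bait was placed at the 50-kb window of chromosome 11 with the highest mean over the 8 Il4 arrays, chr11:53450001-53500000. Its height there is therefore no check of the bait, and all distances are from its centre. The highest 500-kb bin of the genome was chr11:53000001-53500000, which holds that window, in both naive arrays and knockout replicate 1. In the other Il4 arrays, both Th2 arrays among them, it was the adjoining chr11:53500001-54000000. Replicate arrays correlated over the 238 bins of chromosome 11 with r = 0.91 for Th2 and 0.95 for naive cells, and over the 4788 bins of other chromosomes with 0.63 and 0.36. Over probes, 3 of the 4 arrays correlated more with an array of another group than with their own replicate. Th2 replicate 2 did so with replicate 2 of the Ifng Th1 arrays (r = 0.35, against 0.24 with its replicate), Th2 replicate 1 with naive replicate 2 (0.247 against 0.243) and naive replicate 2 with replicate 2 of the Il4 Th1 arrays (0.38 against 0.27). Over the bins of other chromosomes the Th2 arrays correlated with naive replicate 2 at 0.67 and 0.74, more than with each other, so counts are also given with arrays left out. The sorted values of the Th2 pair matched within 0.011 for 10.8% of probes. They matched for 99.8% in the naive pair, 99.99% in the Il4 Th1 pair and 99.87% in the Stat6 knockout pair. Each of these pairs other than Th2 thus has 1 distribution of values in common, and the spread within it leaves out any difference in it. The limma tests pool the spread of all Il4 groups, so their p-values rest in part on such pairs. Precision is limited by the few arrays.

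At the bait itself the Th2 arrays lay on either side of the naive arrays. The 16 probes within 50 kb had a mean log2 ratio of 2.74 and 4.03 in the Th2 arrays, against 3.18 and 3.00 in the naive arrays. Over the 75 probes within 250 kb the Th2 arrays had 2.37 and 3.41 and the naive arrays 2.81 and 2.56. The means, 2.89 ± 0.74 in Th2 and 2.69 ± 0.18 in naive cells (SD, n = 2 each), differed by less than the Th2 arrays did from each other. The difference was 0.20 with all 4 arrays, -0.32 without Th2 replicate 2, 0.72 without Th2 replicate 1 and 0.86 with arrays scaled by their spread off chromosome 11. The distance classes are given as values with no test. An exact two-sided permutation test of 2 against 2 arrays cannot go below p = 0.33.

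From 500 kb outward the Th2 signal was lower in both arrays. At 500 kb to 1 Mb the Th2 arrays had 1.19 and 1.10 and the naive arrays 2.08 and 1.96, a difference of -0.88. At 1 to 2 Mb they had 1.07 and 1.02 in Th2 cells, against 1.89 and 1.98 in naive cells. The Th2 arrays were close to each other and well below both naive arrays in these classes. Beyond 2 Mb the Th2 level was lower than at 1 to 2 Mb and still above 0: at 2 to 5 Mb it was 0.29 and 0.20, against 0.88 and 1.04 in naive cells, and beyond 40 Mb it was 0.22 and 0.20, against 0.70 and 0.85. In every class from 500 kb outward the groups did not overlap.

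The drop of the signal with distance depended on the outer class. Between the inner 250 kb and 1 to 2 Mb the log2 ratio dropped by 1.30 and 2.39 in the Th2 arrays, against 0.92 and 0.58 in the naive arrays. The Th1 arrays dropped by 1.97 and 1.05 and the Stat6 knockout arrays by 1.73 and 1.39, so over this range the drop was larger in all 6 arrays that are not naive. From the inner 250 kb to all probes beyond 1 Mb the drop was 2.19 and 3.23 in the Th2 arrays, against 2.21 and 1.84 in the naive arrays, and the groups overlapped.

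**Figure D1:**
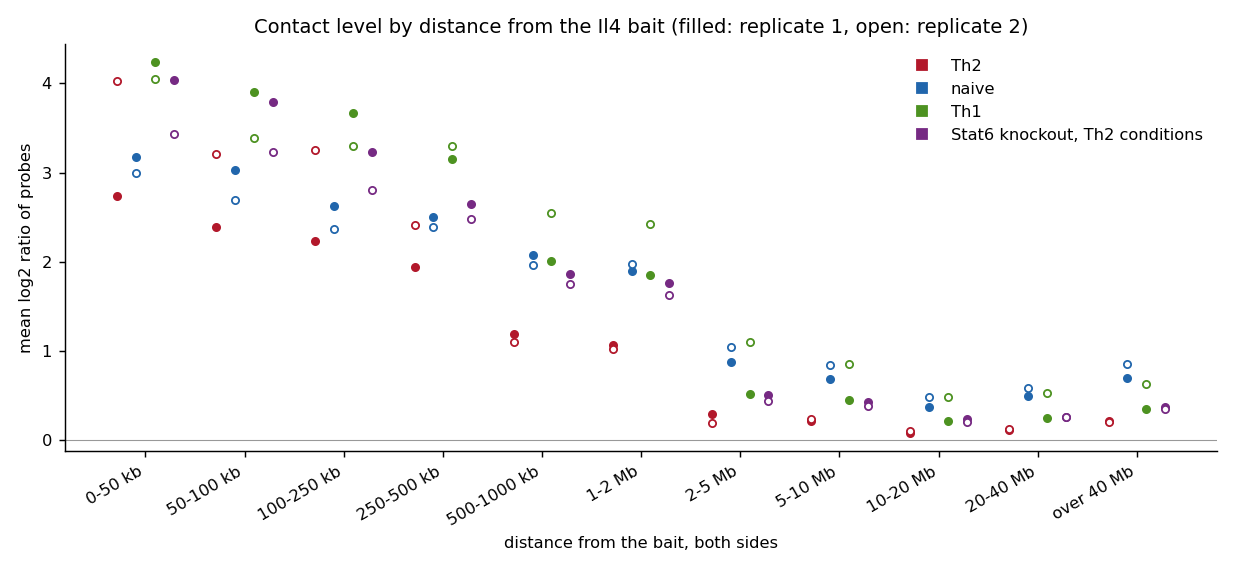
Mean log2 ratio of the probes in each distance class (horizontal axis, both sides of the bait together) for the 8 Il4 arrays, with 2 points per cell type, filled for replicate 1 and open for replicate 2. The Th2 points straddle the naive points in each class up to 250 kb, at 2.74 and 4.03 against 3.18 and 3.00 within 50 kb. They lie below the naive points from 500 kb outward, at 1.19 and 1.10 against 2.08 and 1.96 in the class up to 1 Mb.

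The 2 sides of the bait did not look alike between 250 and 500 kb. On the centromeric side the Th2 arrays had 1.63 and 1.89 and the naive arrays 2.43 and 2.28, with no overlap. On the telomeric side the Th2 arrays had 2.16 and 2.77 and the naive arrays 2.56 and 2.46, and the Th2 arrays again lay on either side. At 500 kb to 1 Mb both sides were lower in Th2 cells, by -1.10 toward the centromere and -0.66 toward the telomere. The difference between the sides was not tested.

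The 50-kb windows within 1 Mb of the bait also differed with distance, without a sharp border at 500 kb. Of the 11 windows within 250 kb, Th2 replicate 2 was above both naive arrays in 11 and Th2 replicate 1 below both in 9. Of the 10 windows between 250 and 500 kb, both Th2 arrays lay below both naive arrays in 4. These were centred 400, 450 and 500 kb from the bait toward the centromere and 350 kb toward the telomere. Of the 19 windows between 500 kb and 1 Mb, both Th2 arrays lay below both naive arrays in 19, where 16.1% of all windows of the genome did so. No window within 1 Mb passed the limma test over all 46596 windows, and the lowest adjusted p among those 19 was 0.0586.

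The highest window, at the bait, had 2.81 and 3.91 in the Th2 arrays, against 3.14 and 2.93 in the naive arrays. The next highest, chr11:53550001-53600000 and chr11:53750001-53800000, had changes of 0.09 and 0.01. The most negative difference near the bait was in chr11:53000001-53050000, with 0.18 and 0.19 in the Th2 arrays against 2.11 and 2.17 in the naive arrays (change -1.96, SE 0.38, limma adjusted p = 0.113). This window, 450 kb from the bait on the centromeric side, was at the level of the other chromosomes in both Th2 arrays while both naive arrays held it high. The next 2 were chr11:52500001-52550000 (-1.75) and chr11:52550001-52600000 (-1.57). The most positive differences, in chr11:53300001-53350000 (0.52), chr11:53700001-53750000 (0.36) and the bait window (0.32), came from Th2 replicate 2, with replicate 1 below or between the naive arrays in all 3.

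**Figure D2:**
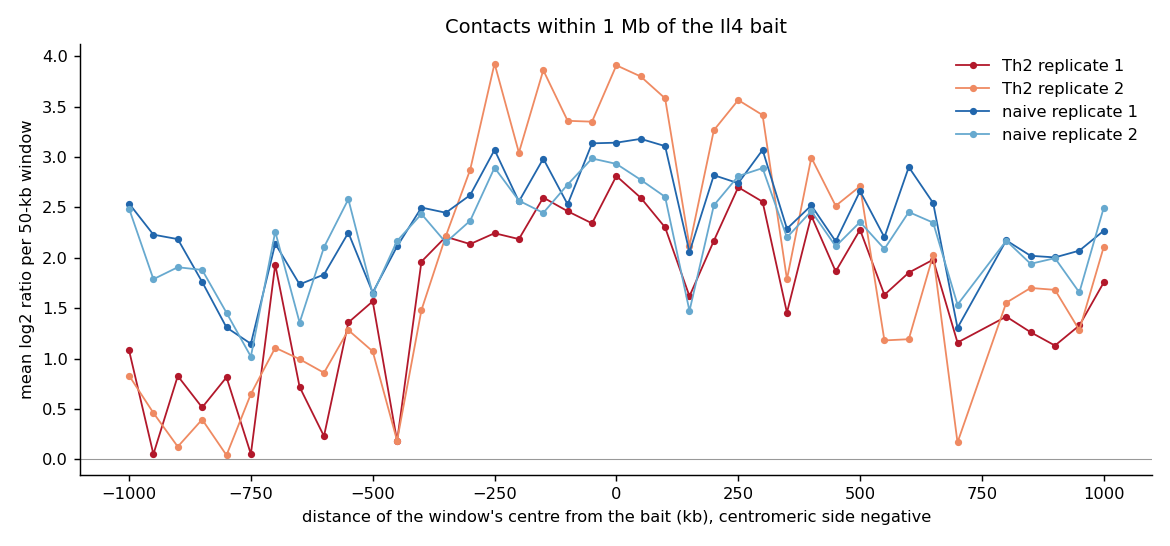
Mean log2 ratio of each 50-kb window (vertical axis) against the distance of its centre from the bait in kb, centromeric side negative, for the 2 Th2 and 2 naive arrays. Th2 replicate 2 peaks above the naive arrays within 250 kb and Th2 replicate 1 runs mostly below them, while both fall below the naive arrays in all 19 windows beyond 500 kb.

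Along the whole of chromosome 11 the question was where the contacts of Il4 differed between Th2 and naive cells. Contact was lower in Th2 cells in bins on both sides of the bait, out to the ends of the chromosome, and no bin with higher contact passed the test. Beyond 1 Mb from the bait the mean log2 ratio was 0.17 and 0.18 in the Th2 arrays, against 0.60 and 0.72 in the naive arrays. Of 5026 bins of 500 kb, 114 (2.27%) were lower and 0 higher in Th2 cells by limma with Benjamini-Hochberg adjustment, and 271 had an unadjusted p under 0.05. Of the 114, 113 lay on chromosome 11, which has 238 bins. Both Th2 arrays were below both naive arrays in 200 of those 238 bins (12.4% of all bins) and above them in 3 (17.5% of all bins). Without Th2 replicate 2, 58 bins were called, all on chromosome 11 and all lower, and without Th2 replicate 1, 63. With each array scaled by its spread off chromosome 11, 36 were called, 35 of them on chromosome 11, and without naive replicate 2, 49.

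The spread of the ratios also differed between arrays. The SD of all probes was 0.39 and 0.46 in the Th2 arrays against 0.53 in both naive arrays. For the bins on other chromosomes the median absolute deviation was 0.038 and 0.053 in the Th2 arrays against 0.041 and 0.085 in the naive arrays. The groups were apart in the SD and overlapped in the deviation off chromosome 11. The part of a narrower range of ratios in the lower contact was not tested, and a weaker 4C library and fewer contacts per cell cannot be told apart here. Th2 and naive arrays shared 2 array serial series, with 1 of each in both, and within the series the calls were 53 and 22, all lower and all on chromosome 11.

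The bins with the smallest p among those higher in Th2 cells did not pass the test. They were chr11:38000001-38500000 with -0.02 and 0.08 in the Th2 arrays against -0.06 and -0.03 in the naive arrays, chr11:11500001-12000000 with 0.53 and 0.26 against 0.26 and 0.30, and chr11:47500001-48000000 with -0.04 and 0.11 against -0.04 and -0.04. In each the limma adjusted p was 1.

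The called bins were unevenly placed. On the telomeric side of the bait 92 of 137 bins were called, and on the centromeric side 21 of 101. The centromeric calls were densest near the bait, with 7 of the 8 bins at 1 to 5 Mb, against 2 of 20 at 10 to 20 Mb, 5 of 40 at 20 to 40 Mb and 5 of 21 beyond 40 Mb. The telomeric calls ran to the chromosome end, with 9 of 10 bins at 5 to 10 Mb, 8 of 20 at 10 to 20 Mb, 26 of 40 at 20 to 40 Mb and 43 of 57 beyond 40 Mb. The naive level followed the same sides: beyond 1 Mb it was 0.34 and 0.40 toward the centromere and 0.79 and 0.96 toward the telomere, while the Th2 level was 0.11 in both arrays toward the centromere and 0.22 in both toward the telomere.

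**Figure D3:**
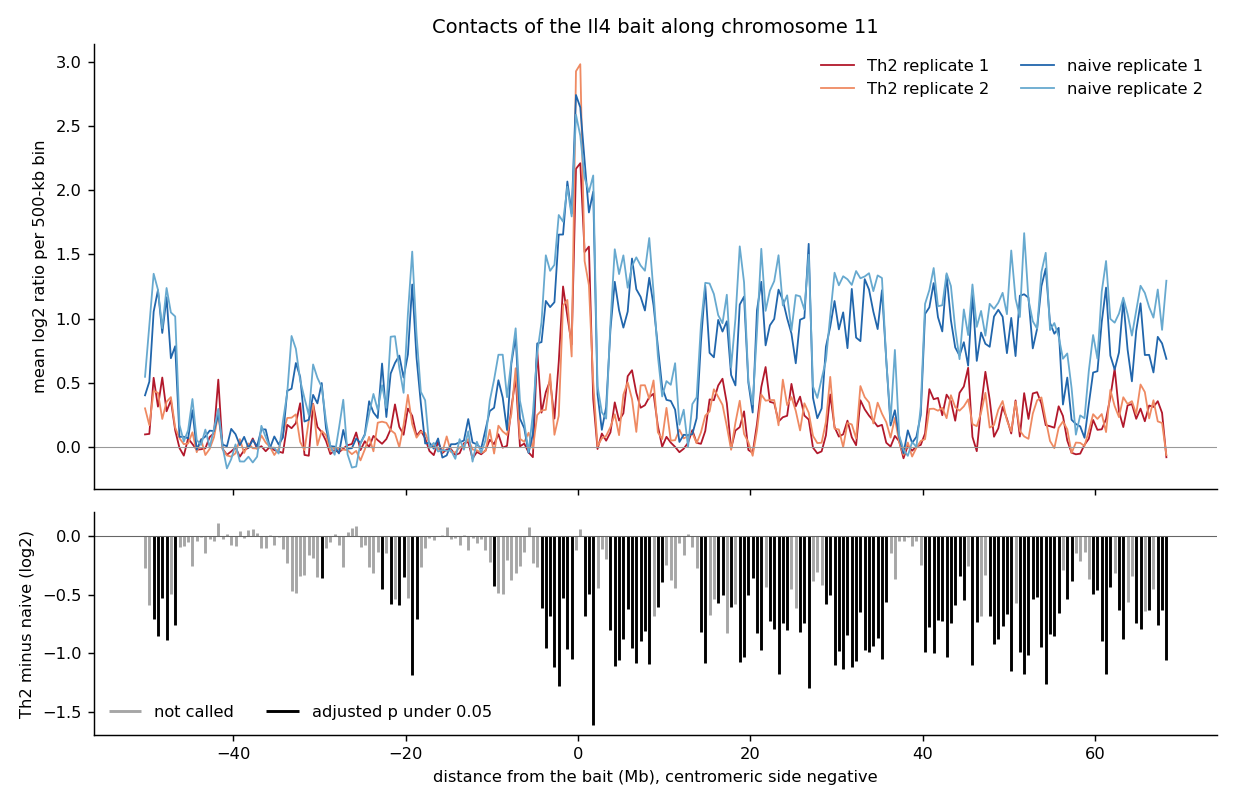
Upper panel, mean log2 ratio of the 500-kb bins of chromosome 11 against the distance from the bait in Mb for the 2 Th2 and 2 naive arrays; lower panel, the change, Th2 minus naive, with black bars for the 113 bins with limma adjusted p under 0.05. The Th2 arrays are highest in chr11:53500001-54000000, at 2.21 and 2.98. The naive arrays are highest in the bin before it, chr11:53000001-53500000, at 2.74 and 2.58 before centring. Elsewhere both Th2 arrays run below the naive blocks, and all 113 black bars point down.

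Adjacent called bins merged into 29 regions, all lower in Th2 cells, and the 12 with the largest mean change are described. A region's change is the mean over its bins, and its limma SE and adjusted p are those of its best bin. The largest was chr11:79000001-80500000 in band 11qB5, with 0.28 and 0.25 in the Th2 arrays against 1.19 and 1.25 in the naive arrays (change -0.95, SE 0.10, adjusted p = 7.6e-05). Both pairs were tight there and far apart, but the call was lost with arrays scaled by their spread (limma adjusted p = 0.0751). Th1 arrays had 0.75 and 1.18 and Stat6 knockout arrays 0.58 and 0.56 in this region, between the Th2 and the naive level.

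Beside the bait, chr11:54000001-55500000 kept contact in both cell types. It had 1.15 and 1.07 in the Th2 arrays against 2.01 and 2.07 in the naive arrays (change -0.93). On the other side, chr11:49000001-53000000 had 0.65 and 0.55 in the Th2 arrays against 1.42 and 1.58 in the naive arrays (change -0.90). These flanks are in band 11qB1.3, the band of Il4 itself, and reach into 11qB1.2. They were well above the level of the other chromosomes in all 4 arrays and below the naive level in both Th2 arrays. The farther flank chr11:57000001-62000000, in 11qB1.3 and 11qB2, had 0.35 and 0.33 in the Th2 arrays against 1.15 and 1.39 in the naive arrays (change -0.93).

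On the centromeric side 1 distant region was among the 12, chr11:34000001-35000000 in 11qA4. It had 0.17 and 0.13 in the Th2 arrays against 0.98 and 1.20 in the naive arrays (change -0.94, SE 0.23, adjusted p = 0.0206). The region lies 18.5 Mb from the bait, and its call was lost when any 1 of the 4 arrays was left out (limma adjusted p = 0.063 to 0.262), with arrays scaled by their spread (0.0682) and with medians (0.0515).

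The other 7 regions lay on the telomeric side of the bait. The longest was chr11:82000001-89500000 in 11qC, with 0.17 and 0.24 in the Th2 arrays against 0.99 and 1.21 in the naive arrays (change -0.89). The next was chr11:104500001-109500000 in 11qE1, with 0.27 and 0.17 in Th2 cells against 1.06 and 1.13 in naive cells (change -0.88). The others, chr11:67500001-68500000 in 11qB3, chr11:75500001-78000000 in 11qB5, chr11:99000001-100000000 in 11qD, chr11:101000001-104000000 in 11qD and 11qE1, and chr11:120500001-122000000 in 11qE2, changed by -0.95 to -0.82. In chr11:99000001-100000000 the Th2 arrays had 0.02 and 0.17, against 0.93 and 1.10 in the naive arrays. The contact was thus near the level of other chromosomes in 1 Th2 array and clear in both naive arrays. Over 16 alternative settings, several of which cannot move the change itself, 21 of the 192 values of the 12 regions no longer passed the threshold. Of these 8 fell on chr11:34000001-35000000, and chr11:49000001-53000000 was lost without naive replicate 2.

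At the finer scale of 50 kb, 120 windows (0.258% of 46596) were lower and 1 (0.00215%) higher in Th2 cells, and 117 of them lay on chromosome 11. An unadjusted p under 0.05 was found in 2535 windows. The window with the smallest p, chr11:80350001-80400000, had -0.16 and 0.14 in the Th2 arrays against 2.32 and 2.54 in the naive arrays (change -2.44, SE 0.17, limma adjusted p = 0.00262). The window lies 26.9 Mb from the bait, and the Th2 arrays were on either side of 0 there. The next were chr11:86800001-86850000 (-1.81) and chr11:60750001-60800000 (-1.82). Leaving out either Th2 array ended all calls at this scale, with 2196 windows at an unadjusted p under 0.05 without replicate 1 and 1675 without replicate 2.

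By cytogenetic band, 7 of 401 bands (1.75%) were lower and 0 higher in Th2 cells by the limma test, with 16 at an unadjusted p under 0.05. All 7 are on chromosome 11: 11qB2, 11qB4, 11qB5, 11qC, 11qD, 11qE1 and 11qE2. Both Th2 arrays were below both naive arrays in 8.48% of all bands. These calls were lost when any 1 of the 4 arrays was left out or when arrays were scaled by their spread. A band is used for genes because the gene table is of another build, and a gene named by its band need not lie where contact changed.

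Band 11qB1.3 holds the bait and the genes around it: Il4, Il13, Il5, Rad50, Irf1, the blood cell growth factor genes Csf2 and Il3, and Tcf7, which encodes the transcription factor TCF1 of naive T cells. It had the highest level of all bands, 0.71 and 0.73 in the Th2 arrays against 1.42 and 1.51 in the naive arrays. Its change of -0.74 did not pass the test (SE 0.15, limma adjusted p = 0.072).

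Band 11qC, with Ccl3, Ccl4 and Ccl5, which encode chemokines of activated T cells, had 0.15 and 0.22 in the Th2 arrays against 0.90 and 1.12 in the naive arrays (change -0.82, SE 0.12, limma adjusted p = 0.0248). Band 11qD holds Tbx21, the master regulator gene of Th1 cells, with Stat3, Stat5a and Stat5b, further STAT genes, Ccr7, which encodes the lymph node homing receptor, and Ikzf3, an Ikaros family member. It had 0.22 and 0.20 in the Th2 arrays against 0.69 and 0.80 in the naive arrays (change -0.53, SE 0.08, adjusted p = 0.0248). Band 11qE2, with Socs3, which encodes an inhibitor of cytokine signalling, fell by 0.55 (adjusted p = 0.0327). In each of these bands the Th2 arrays lay close together and below both naive arrays.

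Other landmark genes lie in bands that did not pass the test. Band 11qA1, with Ikzf1, Xbp1, Lif and Osm, had 0.15 in both Th2 arrays against 0.39 and 0.48 in the naive arrays. Band 11qA3.2, with Rel, had 0.07 and 0.09 in the Th2 arrays against 0.22 and 0.30 in the naive arrays, and band 11qB3, with Trp53, had 0.14 and 0.17 in the Th2 arrays against 0.50 and 0.65 in the naive arrays. In all 3 the Th2 arrays were the lower.

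Contact was also read against the gene content of the bands. The gene-poor band 11qA5, with 1.29 coding genes per Mb, had -0.02 and 0.00 in the Th2 arrays against 0.03 and 0.01 in the naive arrays, so naive cells too showed no contact above other chromosomes there. Band 11qD had the most coding genes per Mb, 25.4. Coding genes per Mb were correlated with contact across the 18 bands of chromosome 11, which share the arrays and the distance from the bait. The r was 0.55 with the Th2 level, 0.73 with the naive level and -0.74 with the change. The change is Th2 minus naive, and the Th2 level was low in most bands. The r with the change thus largely restates that with the naive level and is no separate result. By Giemsa stain, 66 of 134 bins in light bands (49.3%) and 44 of 99 in dark bands (44.4%) beyond 1 Mb were called lower in Th2 cells.

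**Figure D4:**
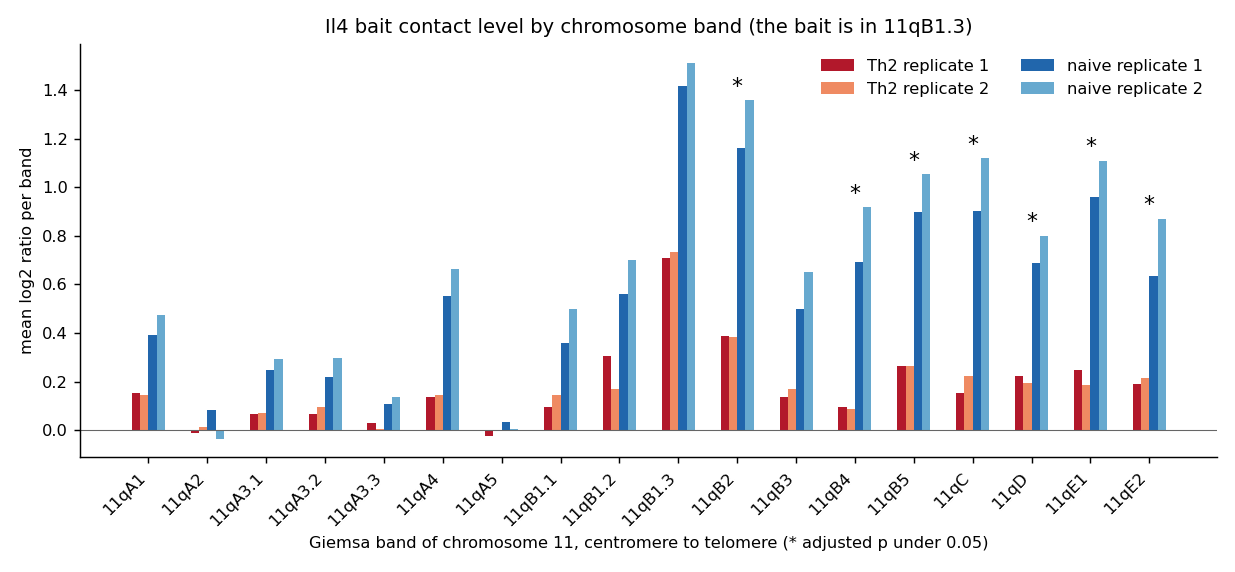
Mean log2 ratio of each Giemsa band of chromosome 11, from the centromere (left) to the telomere (right), with 1 bar for each Th2 and naive array and a star over the 7 bands with limma adjusted p under 0.05. The bait's band 11qB1.3 is the highest in all 4 arrays, the naive bars exceed the Th2 bars in every band but 11qA2, and the bars of 11qA2 and 11qA5 are near 0.

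The profile was also compared in relative terms, after each array's bins on chromosome 11 were set to their median and divided by their median absolute deviation beyond 1 Mb, which takes out a shift and a scale common to all bins. On this scale 21 of 238 bins (8.82%) were higher and 2 (0.84%) lower in Th2 cells by the limma test. The bait region chr11:53000001-55000000 stood 12.6 and 16.4 deviations above the median in the Th2 arrays, against 4.13 and 3.11 in the naive arrays. The adjoining chr11:51500001-52500000 stood at 7.32 and 8.01 against 2.92 and 2.27. The divisor differed between the groups: the median absolute deviation was 0.138 and 0.123 in the Th2 arrays, against 0.415 and 0.455 in the naive arrays. Undivided, the drop from the inner 250 kb to beyond 1 Mb did not separate the groups, as given above.

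The next gains on the relative scale were farther away. In chr11:46000001-46500000 the Th2 arrays had 3.02 and 3.87 and the naive arrays 0.51 and 0.14, in chr11:11500001-12000000 2.90 and 0.98 against -0.94 and -1.23, and in chr11:98500001-99000000 3.57 and 1.90 against -0.04 and 0.03. The regions lower in Th2 cells were chr11:84000001-84500000 with -0.19 and -1.11 in the Th2 arrays against 0.96 and 1.03 in the naive arrays, and chr11:121500001-122000000 with -1.48 and -1.62 against 0.09 and 0.96. The split depended on the divisor: with the mean and the SD in place of the median and the median absolute deviation, 10 bins were higher and 21 lower, and centring alone gave 89 higher and 38 lower. Higher by both divisors were 10 bins, 5 of which lie in the bait region and its neighbour, and lower by both were the 2 named. The SD too was smaller in the Th2 arrays, 0.22 and 0.19 against 0.46 and 0.54 in the naive arrays. The 2 divisors are thus no independent check of each other. With centring alone, only chr11:53500001-54000000 of those 5 bins was called (change 0.68, limma adjusted p = 0.0244). The others had limma adjusted p of 0.08 to 0.76. Without naive replicate 2 no bin was called on this scale, with 37 at an unadjusted p under 0.05, and without naive replicate 1, 2 were.

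Contacts were also called within each array, as bins holding more of the array's highest 5% of probes than their number of probes gives (binomial test, one-sided, Benjamini-Hochberg adjusted). Chromosome 11 holds 4.76% of all probes and held 11.6% and 8.85% of the highest 5% in the Th2 arrays, against 27.4% and 34.1% in the naive arrays. Within 1 Mb of the bait lay 218 and 174 of these probes in the Th2 arrays, against 264 and 273 in the naive arrays. As a share of those on chromosome 11, whose total was lower in the Th2 arrays, this was 9.45% and 10.1% in the Th2 arrays and 4.98% and 4.16% in the naive arrays. A contact in both arrays was found in 25 bins (0.497% of 5026) in Th2 cells and in 171 bins (3.4%) in naive cells, of which 23 and 163 lay on chromosome 11. All 23 Th2 bins of chromosome 11 were among the naive ones, which is 100% of the Th2 and 14.1% of the naive bins, where naive contacts took up 68.5% of all bins of the chromosome. The Th2 arrays alone gave 77 and 29 bins on chromosome 11 and the naive arrays alone 166 and 179.

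Naive contacts formed long blocks and Th2 contacts mostly single bins. The longest Th2 run, chr11:51500001-55000000, spans the bait over 3.5 Mb, and the only other run of over 1 bin was chr11:60500001-61500000 over 1 Mb. The longest naive runs were chr11:93500001-110500000 over 17 Mb, chr11:67000001-81000000 over 14 Mb, chr11:112500001-122000000 over 9.5 Mb and chr11:81500001-89500000 over 8 Mb, followed by chr11:48500001-56000000 with the bait and chr11:57000001-64500000, both over 7.5 Mb. Among the Th2 bins inside naive runs was chr11:46000001-46500000, which was also among the relative gains, with 0.54 and 0.61 in the Th2 arrays against 0.86 and 0.92 in the naive arrays.

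**Figure D5:**
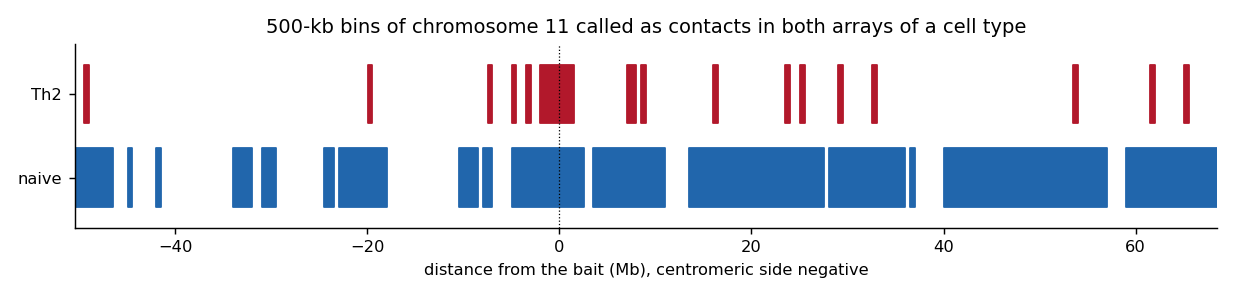
Runs of adjacent 500-kb bins called as contacts in both arrays of a cell type, along chromosome 11 by distance from the bait in Mb, Th2 above naive. The Th2 row has 1 block of 3.5 Mb at the bait, 1 run of 1 Mb and scattered single bins. The naive row has blocks of up to 17 Mb on the telomeric side of the bait.

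Off chromosome 11 the differences were small. Chromosome 11 as a whole had 0.20 and 0.21 in the Th2 arrays against 0.63 and 0.75 in the naive arrays, a difference of -0.49, while those of the other chromosomes ran from -0.03 on chromosome 19 to 0.07 on the Y chromosome, which has 235 probes. The 1 bin called off chromosome 11 was chr12:100000001-100500000, with 0.02 and -0.01 in the Th2 arrays against 0.23 and 0.29 in the naive arrays (change -0.25, SE 0.05, limma adjusted p = 0.0331). This bin's call was lost under 15 of the 17 alternatives tried for it. With chromosome 11 left out of the limma fit, 0 of 4788 bins were called and 117 had an unadjusted p under 0.05. The bins next in p, chr9:110500001-111000000 (-0.34, adjusted p = 0.0765) and chr16:93000001-93500000 (-0.24, adjusted p = 0.0902), and the positive differences with the smallest p, chr7:59000001-59500000 (0.30, adjusted p = 0.104), chr7:38000001-38500000 (0.22) and chr1:30500001-31000000 (0.16), did not pass.

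Of the 50-kb windows off chromosome 11, 4 were called. The 1 higher in Th2 cells was chr1:60650001-60700000, with 0.77 and 0.81 in the Th2 arrays against -0.20 and -0.02 in the naive arrays (change 0.89, SE 0.14, limma adjusted p = 0.0462). It is a window of 6 probes in which both Th2 arrays were clear of the naive ones. The lower ones were chr5:115150001-115200000 (-0.86), chr19:46800001-46850000 (-0.79) and chr9:108350001-108400000 (-0.82), each near 0 in both Th2 arrays. The calls of these 4 were lost under 7 to 9 of the 11 or 12 alternatives tried for each.

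Ifng, the Th1 signature cytokine gene on chromosome 10, is the other bait of the series. Its bait bin, chr10:117500001-118000000, had -0.01 and 0.04 in the Th2 arrays against 0.12 and 0.16 in the naive arrays (change -0.13, SE 0.06, limma adjusted p = 1). The Th2 values were both below the naive ones, and the difference did not pass the test. It ranked 116 of the 4788 bins off chromosome 11 from the most negative difference.

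Bands of the genes of the Th2 programme off chromosome 11 did not pass the test. The bands of Gata3 (2qA1), the Th2 master regulator, of Maf (8qE1), a factor that binds the Il4 promoter, of Stat6 (10qD3), of Il4ra (7qF3), a receptor chain for interleukin 4, and of Il10 (1qE4) had values of 0.04, 0.01, 0.01, 0.00 and -0.02 for Th2 minus naive. Of the 20 genes of that list 15 could be placed, in 13 bands, and 1 band, 11qD with Stat5a and Stat5b, was called lower, where 1.75% of all bands and 7 of the 18 of chromosome 11 were. Of the Th1 programme 19 of 20 were placed in 15 bands, 2 called lower, 11qC and 11qD. Called lower among the other lists were 1 of 16 bands of genes of naive and all T cells, 2 of 9 of B cell, myeloid and natural killer genes and 2 of 41 of olfactory and neuronal genes. The bands of Ifng (10qD2), Stat4 (1qC1.1), Il12rb2 (6qC1) and Runx3 (4qD3) had values of 0.01, 0.04, 0.02 and -0.03. Off chromosome 11 the median change of the bands was -0.00048 for the Th2 list, 0.007 for the Th1 list, 0.017 for genes of naive and all T cells (12 bands), 0.016 for B cell, myeloid and natural killer genes (7 bands) and 0.017 for olfactory and neuronal genes (37 bands), beside 0.017 over all 383 bands. The called bands of these lists were all on chromosome 11.

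The Th2 arrays were also set beside the Th1 and Stat6 knockout arrays, in comparisons that share the Th2 arrays with those above. Beyond 1 Mb from the bait on chromosome 11 the Th2 arrays had 0.17 and 0.18, the Th1 arrays 0.33 and 0.64, the Stat6 knockout arrays 0.35 and 0.32 and the naive arrays 0.60 and 0.72. The Th2 arrays were the lowest of the 8, and the Th1 arrays were far apart, 1 near the knockout and 1 between the naive arrays. By group means, Th2 was the lowest of the 4 groups in 198 of 233 bins beyond 1 Mb and naive the highest in 169. Against Th1 cells, 19 bins (0.378%) were lower and 0 higher in Th2 cells, with 320 at an unadjusted p under 0.05, and all 19 were on chromosome 11. Without Th1 replicate 1 that count was 118, without Th2 replicate 1 it was 3, without Th2 replicate 2 it was 10, and with arrays scaled by their spread it was 0. Both knockout arrays come from a serial series that holds none of the Th2 or naive arrays, so genotype and series cannot be told apart there. The bin called against Stat6 knockout cells lay in chr11:54000001-55500000, where Th2 minus knockout was -0.76. With 383 bins at an unadjusted p under 0.05, 1 bin (0.0199%) was lower and 0 higher in Th2 cells. That count was 0 with quantile normalization, scaling or the replicate number as a block, and without Th2 replicate 2, either naive array or knockout replicate 2.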

How the data were processed

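The 4 arrays compared were taken from sample titles, and the members, gene lists and tests were chosen with earlier results of these data known. The authors deposited 1 log ratio per probe, Cy5 4C DNA over Cy3 genomic DNA per the labels' protocols, treated here as log2 values. The base of the log, scanner software, background correction, normalization and genome build are not given in the sources used here. Of the genome builds mm7 to mm10, mm8 was the one with 0 of 21 chromosomes holding a probe past their end (mm7 15, mm9 5, mm10 8), and positions are given in it. Array positions read chr20 and chr21 as X and Y. No loess or quantile step was added, since contacts shift many probes of a chromosome one way.

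From each of the 8 Il4 arrays the median of the probes on other chromosomes than 11 was subtracted, and values were averaged over 500-kb bins (at least 20 probes), 50-kb windows (at least 5) and Giemsa bands of circlize 0.4.16 (at least 20). Bins near the bait were kept. Th2 and naive groups were compared by a linear model with moderated variances (limma 3.58.1, R 4.3.3), two-sided, with all 4 Il4 groups sharing the estimate of spread and Benjamini-Hochberg adjustment at 0.05 over all features. Genes were placed by band through a RefSeq table of GRCm38.p6, leaving out genes within 500 kb of a band's edge. Regions named were at most 12 merged regions with the largest change per direction and no overlap of arrays, or the 3 smallest p where none passed. Some landmark genes fixed for naming are not reported here. On simulated data the fit recovered 74% of bins changed by 0.4 and 100% of those changed by 0.8, with 4% of calls false. Of 50-kb windows changed by 0.8 and 1.2 it recovered 10% and 56%. The noise of each bin or window was drawn separately. The share of false calls therefore does not cover a shift that the bins of chromosome 11 share within an array. Same-numbered Th2 and naive arrays deviated together with r = 0.27 over all bins, 0.34 off chromosome 11 and -0.06 on chromosome 11. The numbers were not taken as pairs, and counts with the replicate number as a block are given below. Alternatives covered scaling, bin size, filters, blocks and left-out arrays. Python 3.11.15 with pandas 2.3.3, numpy 2.4.6, scipy 1.17.1 and matplotlib 3.10.9 made tables and figures.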

Additional observations from a re-analysis of the deposited data

How the results depend on the processing

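Counts of called 500-kb bins of Th2 against naive cells, 114 in all, were 36 with arrays scaled by their spread off chromosome 11, 53 and 22 within serial series 31 and 40, 204 with 200-kb bins and 62 with 1000-kb bins, 56 with medians, 69 with the trend and robust settings of eBayes, and 0 without chromosome 11. Leaving out 1 array gave 49 to 100. Quantile normalization, the 4 arrays alone, the serial series as a block, a minimum of 1 probe, trimming or leaving out the bait bins gave counts within 1.5 times. With the replicate number as a block, which the labels do not tie to a mouse or day, 110 bins were called. The 50-kb windows, 121 in all, were 419 with the 4 arrays alone, 60 with the series block and 0 within either series, with 2233 and 3157 at an unadjusted limma p under 0.05, and 0 to 33 with 1 array left out. The bands, 7 in all, were 14 with the 4 arrays alone and 0 by limma with scaling (41 at an unadjusted p under 0.05), the series block (13), within the series (28 and 19), with medians (15) and without any 1 array (14 to 46). The relative profile, 23 bins, had 127 when centred only, 0 and 3 within the series (limma, 45 and 54 at an unadjusted p under 0.05) and 0 to 33 with 1 array left out. Against Th1, 19 bins became 3 with quantile normalization, 0 with scaling (221 at an unadjusted limma p under 0.05) and 3 to 118 with 1 array left out. The Th1 arrays and the knockout arrays were left out in turn only after the data had been seen. Against Stat6 knockout cells, 1 bin became 3 with the series block, 0 with quantile normalization, scaling or the replicate block (226, 300 and 386 at an unadjusted limma p under 0.05) and 0 to 2 with 1 array left out. The difference at 500 kb to 1 Mb, -0.88, was -1.70 with medians of the probes, -0.68 with scaling and -0.74 with quantile normalization. That at 1 to 2 Mb, -0.89, was -1.82, -0.69 and -0.77, and that beyond 1 Mb, -0.49, was -0.20 with medians. With 1 array left out these ranged from -0.94 to -0.82, from -0.94 to -0.85 and from -0.55 to -0.42, and the difference within 250 kb, 0.20, from -0.32 to 0.72. That difference was 0.86 with scaling, 0.41 with quantile normalization and -0.20 and 0.60 within the series. Contact bins on chromosome 11 were 23 for Th2 and 163 for naive cells, 9.66% and 68.5% of its bins. With 1000-kb bins they were 37 (31.1%) and 91 (76.5%), with 37 shared. With 200-kb bins they were 20 (3.37%) and 333 (56.1%). Th2 replicate 1 alone had 77 contact bins of 500 kb there. The fit of the 4 arrays alone was not run against Th1 and Stat6 knockout cells, which it leaves out. The series block sets series 31 against all others, so it does not separate the knockout's series from its genotype. The causes of these changes were not tested, and a fit with 1 array in an arm assumes that it varies like the others.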
